A study of Mus musculus with 85 samples.

Results

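Fc receptors for IgG, the adaptors that signal for them and the kinase Syk were followed through 5 populations of single cells on the route from the embryonic vessel wall to the fetal liver stem cell. The 6 genes were taken as a named set: the activating receptors Fcgr3 and Fcgr1, the inhibitory receptor Fcgr2b, the adaptors Fcer1g and Tyrobp, and Syk. They are 6 of the 18194 genes with a probe set of their own on the array, and every one of their 14 probe sets was read in every cell. All 6 passed the filter for a measured gene, which asks for a log2 value over 5, taken as above background, in at least 3 cells. They passed it mainly through the cluster cells, where most of them are high, so the counts over the 6 genes below are descriptions.

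The study sorted 85 single mouse embryo cells after collagenase dissociation and hybridised the amplified RNA of each to 1 Affymetrix array. At embryonic day 10.5 (E10.5), from the caudal part of embryos of genotype eR1-GFP, 7 endothelial cells (EC) were sorted as eR1-GFP-CD31+Ter119-CD45-CD41- and 7 hemogenic endothelial cells (HEC) as eR1-GFP+CD31+Ter119-CD45-CD41-. The sorted gates for hematopoietic cluster cells were c-Kit+CD31+CD45+SSEA1-, with 28 cells from the same part of wild-type embryos at E10.5 and 16 from the wild-type aorta-gonad-mesonephros region at E12.5. The hematopoietic stem cells (HSC) came from wild-type fetal liver at E14.5, with 27 arrays of cells sorted as Lin-, CD150+, CD48-, Sca-1+, c-Kit+ and Mac-1+. EC and HEC therefore carry the eR1-GFP reporter and the other 3 populations do not, and tissue and day differ along with the population. The labels tie no cell to an embryo, litter or sort. Each population is therefore treated as 1 sample without a test between populations, and each SD or interval below covers the spread or counting error over cells only.

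Fc receptors bind the constant part of antibodies. Fcgr3 and Fcgr1 have no signalling motif of their own and work with Fcer1g, the common gamma chain, which carries an immunoreceptor tyrosine-based activation motif (ITAM). Tyrobp, also called DAP12, is a related ITAM adaptor that serves other myeloid and natural killer cell receptors. Src-family kinases phosphorylate the ITAM, Syk docks on it and passes the signal on, and Fcgr2b, which carries an inhibitory motif, opposes it by recruiting the phosphatase Inpp5d. These genes are found in monocytes, macrophages, granulocytes and mast cells, though they are not limited to them. The Fcgr3 and Fcgr2b proteins together are the CD16/32 antigen used to sort myeloid progenitors.

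Fcgr2b, Fcgr3 and Fcer1g lie on chromosome 1, in this order, with 1 protein-coding gene, Fcgr4, between the first pair and 7 between Fcgr3 and Fcer1g. Fcgr1 lies on chromosome 3, Tyrobp on chromosome 7 and Syk on chromosome 13. The RefSeq promoter table (GRCm38.p6) held 7 start windows for 5 of the 6 genes, all except Tyrobp. The 100 bases before a start are shown for the 3 receptors and Fcer1g, because Fcgr2b, Fcgr3 and Fcer1g are near neighbours on chromosome 1 and yet differed in how many cells held them, as described below. Capitals mark TTCCTC, which is GAGGAA read on the other strand, the core letters of sites for PU.1, the myeloid transcription factor that Spi1 encodes. All 4 genes lie on the minus strand and each stretch is written 5′ to 3′ toward its start.
Fcgr3, chr1:171059404-171059503, minus strand: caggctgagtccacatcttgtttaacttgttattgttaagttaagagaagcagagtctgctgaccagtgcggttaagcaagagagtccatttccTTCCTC
Fcgr1, chr3:96293970-96294069, minus strand: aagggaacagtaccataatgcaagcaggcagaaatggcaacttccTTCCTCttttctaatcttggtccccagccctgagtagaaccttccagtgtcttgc
Fcer1g, chr1:171234350-171234449, minus strand: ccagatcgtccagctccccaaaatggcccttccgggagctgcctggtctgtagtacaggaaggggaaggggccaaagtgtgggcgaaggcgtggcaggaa
Fcgr2b, chr1:170976072-170976171, minus strand: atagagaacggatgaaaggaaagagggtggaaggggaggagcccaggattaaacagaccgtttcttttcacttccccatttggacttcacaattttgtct

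Over the whole 250 bases before each start and on both strands, GAGGAA was found in both windows of Fcgr3, in that of Fcgr1 and in the second window of Syk. In the Fcgr3 stretch above it fills bases 1 to 6 before the start, and in Fcgr1 bases 50 to 55. Fcgr2b, Fcer1g and the first Syk window did not hold it. These letters are common, with a match in 23.3% of 32851 mouse windows of the same length, and a match describes the sequence only. The letters TGTGGT (the Runx core), AGATAA (the Gata core) and TATAAA (the TATA box), each searched on both strands, had no match in the 7 windows, against 14.05%, 9.99% and 12.4% of all windows.

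HSC cells 20 and 21 had a Pearson correlation of 0.991 (next closest pair 0.859) and were averaged, which leaves 84 cells. Per cell, the number of the 45101 probe sets above background ran from 3908 to 8308 in EC, 6670 to 9065 in HEC, 8244 to 11487 in E10.5 cluster cells, 4137 to 11079 in E12.5 cluster cells and 4750 to 8489 in HSC. Of 12 endothelial markers the median HEC had 10 above background, the median EC 8, and the median cluster cell 1 at E10.5 and 0 at E12.5. Ptprc, which encodes the CD45 of the cluster gate, was above background in 26 of 28 and 15 of 16 cluster cells, in 22 of 26 HSC and in no EC or HEC. Some cells go against their label. EC cell 3 had 0 of the 12 endothelial markers and all 3 measured genes of the germ-cell list. That list includes Kit and is not particular to this cell, since the highest count in HSC was also 3, with a median of 2. HSC cells 5 and 7 had 10 of the 12 endothelial markers, and E12.5 cluster cells 3, 6 and 10 had 11, 11 and 10 of 11 macrophage markers. No other E12.5 cluster cell had more than 2 macrophage markers and no E10.5 cluster cell more than 4. Of the macrophage list C1qa, C1qb, C1qc, Aif1 and Vcam1 were above background in no E10.5 cluster cell. The other measured markers passed in some, with Csf1r in 6 and Adgre1 in 3 of the 28 cells. Without these 6 cells, differences of Fcgr3 and Fcgr1 that involve E12.5 clusters are also given. So are the Tyrobp difference between the cluster stages and the counts of genes in some comparisons. Other results are given with all cells. The 6 cells were not chosen by mast cell and basophil markers. The highest count of those markers in an E12.5 cluster cell was 4 of 4 measured.

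Fcgr3, Fcer1g, Tyrobp and Syk had one common outline. They were below background in every EC and HEC, except for Syk in 1 HEC on its lead probe set. Of the 28 cluster cells at E10.5 each was above background in 21 to 27, and of the 16 at E12.5 in 12 to 16. In HSC they parted: Fcgr3 was at the floor of the scale in all 26 cells, while Fcer1g was above background in 4, Tyrobp in 8 and Syk in 8. Fcgr2b and Fcgr1 were confined to small numbers of cluster cells, apart from low Fcgr2b values on 1 probe set.

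**Figure D1:**
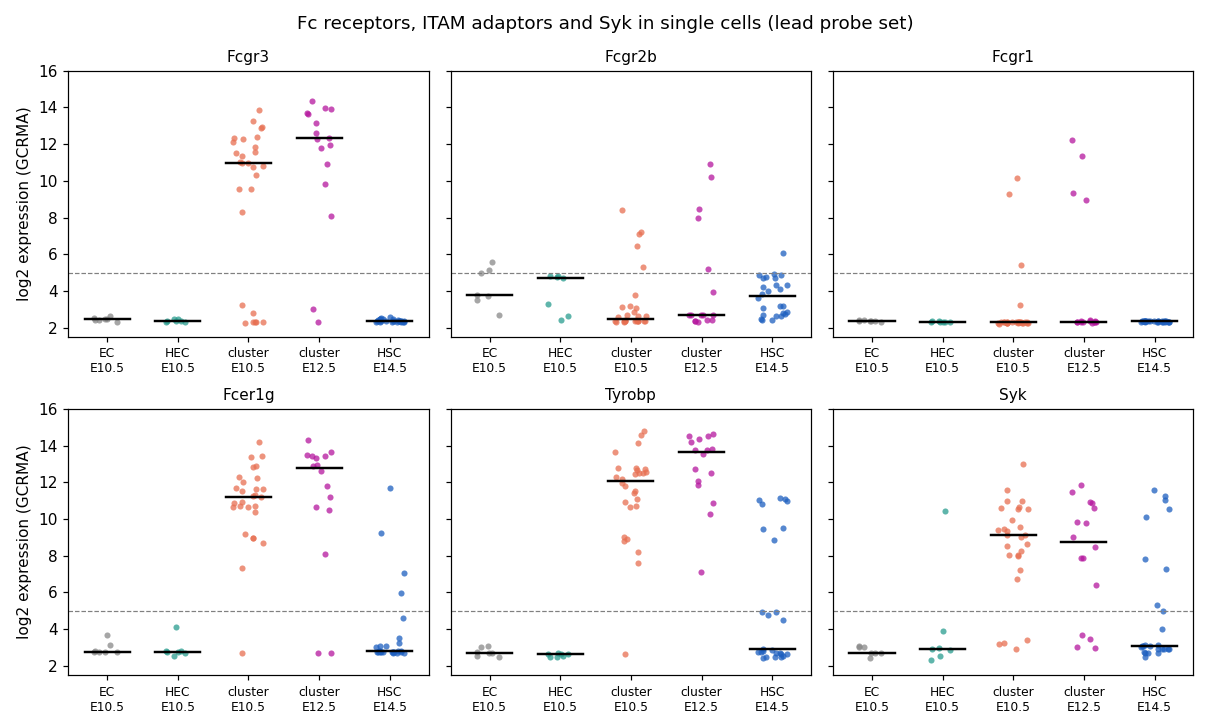
Log2 expression of the 6 genes on their lead probe sets in each of the 84 cells, by population. Each point is 1 cell, the black bar is the median over cells and the dashed line the background limit of 5. Fcgr3 is above the line in cluster cells alone, whereas 4, 8 and 8 of the 26 HSC lie above it for Fcer1g, Tyrobp and Syk.

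Fcgr3, the low-affinity activating receptor (gene 14131, probe set 1448620_at), ran from 2.32 through a median of 2.46 to 2.63 in EC and from 2.32 through 2.35 to 2.496 in HEC. In E10.5 cluster cells it ran from 2.27 through a median of 10.999 to 13.87, and in E12.5 cluster cells from 2.30 through 12.32 to 14.35. In HSC it ran from 2.30 through 2.36 to 2.56. The cluster values fall into separate low and high sets, with no cell between 3.24 and 8.09: 21 of 28 cells at E10.5 (75%, exact Clopper-Pearson 95% interval 55.1 to 89.3%) and 14 of 16 at E12.5 (87.5%, 61.7 to 98.4%) were high. The intervals of the stages overlap. Few values of any probe set lie just over the limit: 17.6% of all values were above 5 and 1.00% between 5 and 6. Whether a low value is absence of the RNA or a missed detection was not tested. None of the 26 HSC was above background, which leaves room for a share of up to 13.2% (upper exact bound), and the highest HSC value lay below every high cluster cell. The 7 low E10.5 cluster cells were cells 2, 4, 17, 22, 23, 24 and 25, and the 2 low E12.5 cells were cells 9 and 12.

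The mean of Fcgr3 was 9.22 ± 4.12 (SD, n = 28 cells) in E10.5 cluster cells against 2.38 ± 0.08 (SD, n = 7) in HEC, a difference of 6.84 on the log2 scale. At E12.5 the mean was 11.12 ± 3.69 (SD, n = 16), which is 1.90 higher than at E10.5, and in HSC 2.38 ± 0.07 (SD, n = 26), which is 8.74 lower than at E12.5. Without the 6 cells that go against their label these last differences were 1.42 and -8.26. The step between the cluster stages is smaller than the SD over cells of either stage. HEC and HSC lie at the floor of the scale, so the differences against them depend on where that floor is set: with all values under 5 set to 5 they were 4.84 for E10.5 clusters against HEC and -6.41 for HSC against E12.5 clusters.

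Fcgr1, the high-affinity activating receptor (gene 14129, lead probe set 1417876_at), passed the limit in 3 of the 28 cells of E10.5 clusters, in 4 of the 16 of E12.5 clusters, and in no EC, HEC or HSC. At E10.5 the 3 cells were cell 1 at 5.42, cell 17 at 9.26 and cell 22 at 10.17. At E12.5 they were cell 3 at 11.34, cell 6 at 12.24, cell 10 at 9.35 and cell 15 at 8.95. All other cells lay between 2.194 and 3.26. The median was at the floor in each population, 2.29 at E10.5 and 2.33 at E12.5, so the gene is one of a minority of cells. The second probe set, 1436625_at, was above background in E12.5 cell 6 alone, at 7.12.

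Of the 4 E12.5 cells with Fcgr1, cells 3, 6 and 10 were the cells with macrophage markers, and cell 15 had 0 of those 11 markers and 6 of 7 markers of granulocyte-monocyte progenitors. The 3 E10.5 cells with Fcgr1 had 1 macrophage marker each. The mean log2 value over the 11 markers ran from 2.56 to 13.48 in E12.5 cluster cells, from 2.4997 to 5.85 in those of E10.5, from 2.66 to 4.46 in HSC and from 2.57 to 3.602 in EC and HEC, and the part of such cells in the values of the stages was not tested. E10.5 cells 17 and 22 are also among the 7 E10.5 cells that lacked Fcgr3, so Fcgr1 came with Fcgr3 in 1 of 3 cells at E10.5 and in 4 of 4 at E12.5. The mean was 4.36 ± 3.71 (SD, n = 16) at E12.5 and 2.96 ± 2.01 (SD, n = 28) at E10.5, a difference of 1.40. It was 0.93 without E12.5 cell 3, 0.87 without E12.5 cell 6, and -0.13 without the 6 cells that go against their label. Likewise the HSC mean of 2.34 lay 2.02 below that of E12.5 with all cells and 0.49 below it without them.

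**Figure D2:**
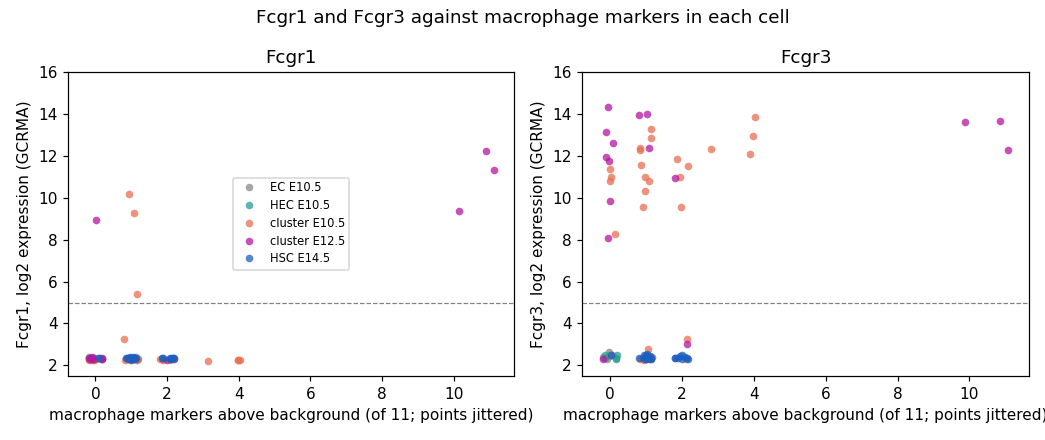
Log2 expression of Fcgr1 (left) and Fcgr3 (right) against the number of 11 macrophage markers above background, 1 point per cell, coloured by population, with the background limit of 5 dashed. The 3 E12.5 cells with 10 or 11 markers are high for both receptors, while Fcgr3 is also high in cluster cells with 0 to 4 markers and Fcgr1 in only 4 of those.

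Fcgr2b, the single inhibitory IgG receptor of the mouse (gene 14130), has 5 probe sets. On the lead set, 1435476_a_at, values ran from 2.67 through a median of 3.78 to 5.60 in EC, from 2.43 through 4.69 to 4.84 in HEC and from 2.40 through 3.74 to 6.05 in HSC. They ran from 2.29 through 2.49 to 8.43 in E10.5 cluster cells and from 2.31 through 2.70 to 10.90 in E12.5 cluster cells. The cluster cells thus hold both the highest values and most of the lowest ones, and the medians are higher in EC, HEC and HSC. This raised middle range appears on the lead set alone. On 1435477_s_at no EC, HEC or HSC was above 2.41, and on 1451941_a_at the same holds. On 1455332_x_at the highest of those cells was an EC at 2.94, and 1447622_at was between 2.194 and 2.41 in all 84 cells.

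Fcgr2b was above background on at least 2 probe sets in 10 cells, all cluster cells: cells 5, 11, 14, 26 and 27 at E10.5 and cells 2, 3, 4, 5 and 8 at E12.5. On 1435477_s_at the E10.5 values were 8.18, 7.91, 10.38, 10.19 and 8.94, in that order of cells, and the E12.5 values 11.58, 9.92, 12.19, 6.36 and 8.76. All 10 cells were also high for Fcgr3, at 10.93 or more. E12.5 cluster cell 11, HSC cell 27 and EC cells 4 and 7 passed the limit on the lead set alone, at 5.18, 6.05, 5.60 and 5.12. Fcgr2b and Fcgr3 encode receptors with closely similar outer parts, so cross-hybridisation between their probes is possible. It was not tested, and 16 of 21 cells with Fcgr3 at E10.5 and 8 of 14 at E12.5 had no Fcgr2b set above background.

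On the lead set the mean of Fcgr2b was 3.36 ± 1.77 (SD, n = 28) at E10.5 and 4.50 ± 3.06 (SD, n = 16) at E12.5, a difference of 1.14. It came to 0.76, 0.88, 0.72 and 0.91 when E12.5 cells 2, 3, 4 and 8 were left out one at a time. Against HEC the E10.5 cluster mean was 0.55 lower on the lead set and 1.18 higher on 1435477_s_at, the set with the largest range, which was chosen after the values were seen. The HSC mean was likewise 0.35 higher than that of E10.5 cluster cells on the lead set and 1.17 lower on 1435477_s_at. No direction is therefore given for Fcgr2b between clusters and the other populations.

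**Figure D3:**
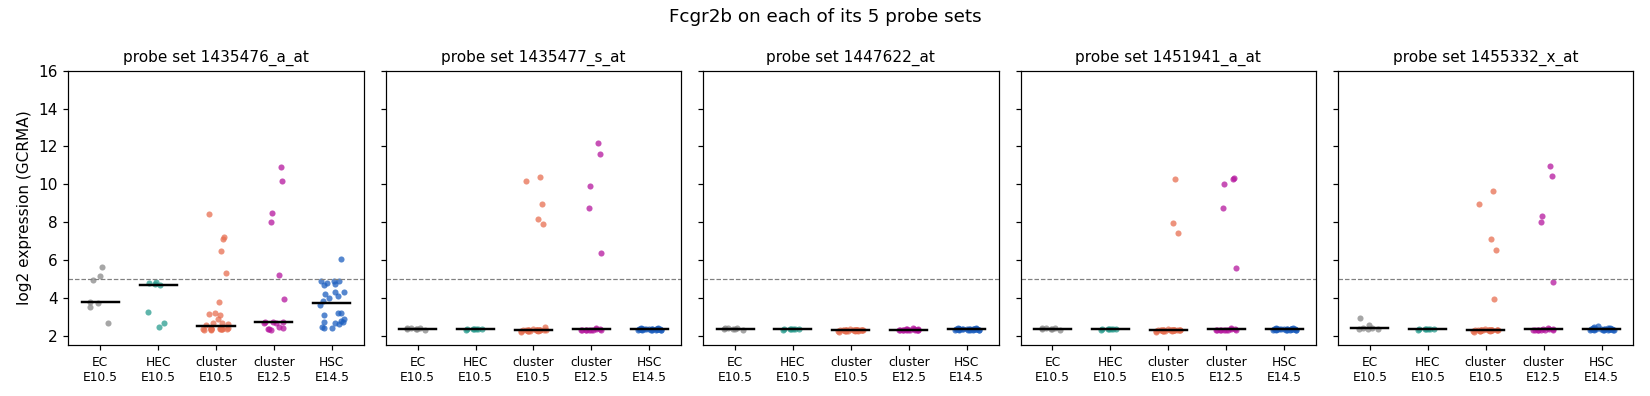
Log2 expression of Fcgr2b on each of its 5 probe sets in every cell, by population, with medians as bars and the background limit of 5 dashed. On 3 of the 5 sets a few cluster cells stand high and all EC, HEC and HSC lie at or near the floor. On 1435476_a_at many EC, HEC and HSC lie between the floor and the limit, and 1447622_at is at the floor throughout.

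Fcer1g, the gamma chain that Fcgr3 and Fcgr1 need at the cell surface (gene 14127, probe set 1418340_at), ran from 2.73 through a median of 2.77 to 3.67 in EC and from 2.52 through 2.74 to 4.10 in HEC. It ran from 2.72 through 11.21 to 14.20 in E10.5 cluster cells and from 2.71 through 12.78 to 14.33 in E12.5 cluster cells. In HSC it ran from 2.70 through 2.79 to 11.67. All but 1 E10.5 cluster cell (27 of 28, 96.4%, interval 81.7 to 99.9%) and 14 of 16 E12.5 cluster cells were above background. The exceptions were E10.5 cell 23 and E12.5 cells 9 and 13. In HSC 4 of 26 cells were (15.4%, 4.36 to 34.9%), and cells 26 and 22, at 11.67 and 9.26, reached the range of the high cluster cells. The E10.5 cluster mean of 10.87 ± 2.23 (SD, n = 28) was 7.95 above that of HEC, the E12.5 mean of 11.12 ± 3.64 (SD, n = 16) 0.25 above that of E10.5, and the HSC mean of 3.79 ± 2.26 (SD, n = 26) 7.33 below that of E12.5. The E12.5 mean includes cells 3, 6 and 10, the cells with macrophage markers, at 12.96, 13.50 and 14.33. The difference of 0.25 is not given without them, so no direction is given for Fcer1g between the cluster stages.

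Tyrobp, the other ITAM adaptor (gene 22177, probe set 1450792_at), ran from 2.46 through a median of 2.73 to 3.07 in EC and from 2.49 through 2.65 to 2.68 in HEC. It ran from 2.66 through 12.09 to 14.81 in E10.5 cluster cells, from 7.12 through 13.66 to 14.64 in E12.5 cluster cells and from 2.44 through 2.89 to 11.15 in HSC. It was the one gene of the 6 above background in all 16 E12.5 cluster cells, and it was missing from a single E10.5 cluster cell, cell 23, the cell that also lacked Fcer1g. In HSC 8 of 26 cells were above background (30.8%, 14.3 to 51.8%), namely cells 3, 4, 6, 7, 11, 19, 20 and 27, at 8.85 to 11.15. A further 4 HSC, between 4.51 and 4.95, lay just under the limit. The highest HSC value was below the median of either cluster population. The E10.5 cluster mean of 11.36 ± 2.51 (SD, n = 28) was 8.76 above that of HEC, the E12.5 mean of 12.79 ± 2.02 (SD, n = 16) was 1.43 higher again, and the HSC mean of 5.36 ± 3.53 (SD, n = 26) was 7.43 below that of E12.5. Without the 6 cells that go against their label the E12.5 difference was 1.06.

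Syk, the kinase that binds phosphorylated ITAMs (gene 20963, lead probe set 1418261_at), ran from 2.45 through a median of 2.69 to 3.07 in EC and from 2.31 through 2.94 to 10.45 in HEC, where cell 7 stood alone at 10.45. It ran from 2.91 through 9.14 to 13.002 in E10.5 cluster cells, from 2.97 through 8.76 to 11.84 in E12.5 cluster cells and from 2.497 through 3.07 to 11.58 in HSC. The cells above background were 24 of 28 at E10.5 (85.7%, 67.3 to 96.0%), 12 of 16 at E12.5 (75%, 47.6 to 92.7%) and 8 of 26 HSC (30.8%, 14.3 to 51.8%). The 8 HSC were cells 6, 8, 9, 14, 22, 23, 26 and 27, and 5 of them, at 10.11 to 11.58, were as high as the upper cluster cells. The E10.5 cluster mean of 8.58 ± 2.62 (SD, n = 28) was 4.59 above that of HEC, the E12.5 mean of 8.01 ± 3.17 (SD, n = 16) was 0.57 below that of E10.5, and the HSC mean of 5.01 ± 3.23 (SD, n = 26) was 2.997 below that of E12.5.

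A second Syk probe set, 1418262_at, passed the limit in 12 of 28 and 7 of 16 cluster cells at E10.5 and E12.5, in 3 of 26 HSC, and also in EC cell 4 at 10.16 and HEC cell 1 at 8.97, neither of which passed on the lead set. By either set 2 of 7 HEC and 1 of 7 EC had Syk. The set 1457239_at passed in E10.5 cell 14 alone, at 8.87, and 1425797_a_at in no cell. With the mean of all 4 sets in place of the lead set, the difference between E10.5 cluster cells and HEC was 1.73. The difference of 1.19 between HEC and EC rests on HEC cell 7 and was 0.12 without it.

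In the single cells, read on the lead probe sets, most cluster cells held both adaptors, and the cells with Fcgr3 were nearly all among them. At E10.5 all 21 cells with Fcgr3 also had Fcer1g and Tyrobp, and 6 of the 7 cells without Fcgr3 had both adaptors too. Fcer1g and Tyrobp marked the same 27 cells. Fcgr3, Fcer1g, Tyrobp and Syk were all above background in 18 of 28 cells. E10.5 cell 23 had Syk, at 9.33, and none of the other 5 genes.

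At E12.5 13 of 14 cells with Fcgr3 had Fcer1g and all 14 had Tyrobp. Cell 13 had Fcgr3 at 8.09 with Fcer1g at 2.71, the one cell of the series with Fcgr3 and without its gamma chain, and its Tyrobp was 10.90. Cell 9 had Tyrobp at 7.12, the lowest of its population, and of the other genes only Syk, at 7.86. All of Fcgr3, Fcer1g, Tyrobp and Syk were above background in 9 of 16 cells, and 4 cells with Fcgr3 had no Syk on the lead set. Of these 4, cells 1 and 14 had Syk on 1418262_at, at 8.035 and 7.98. Between 2 and 5 of the 6 genes were above background in each E12.5 cluster cell, and 1 to 5 in each E10.5 cluster cell.

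In HSC, on the lead probe sets, 12 of 26 cells had none of the 6 genes, 9 had 1, 4 had 2 and 1 had 4. HSC cell 10, counted among those with none, had Syk at 6.04 on 1418262_at. Fcer1g and Tyrobp shared 1 cell, against 3 with Fcer1g and no Tyrobp and 7 with Tyrobp and no Fcer1g. All 4 HSC with Fcer1g also had Syk, and 6 of the 8 with Tyrobp had no Syk. Over all HSC 8 of 26 had Syk and 4 of 26 Fcer1g. The shares with Syk or Fcer1g among the 8 cells with Tyrobp are near these. HSC cell 27 was the cell with 4 genes, with Tyrobp at 9.53, Syk at 11.02 and Fcer1g at 5.98 beside Fcgr2b at 6.05 on its lead set. Of the 2 HSC with endothelial markers cell 7 had Tyrobp at 11.12 and cell 5 had none of the genes.

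**Figure D4:**
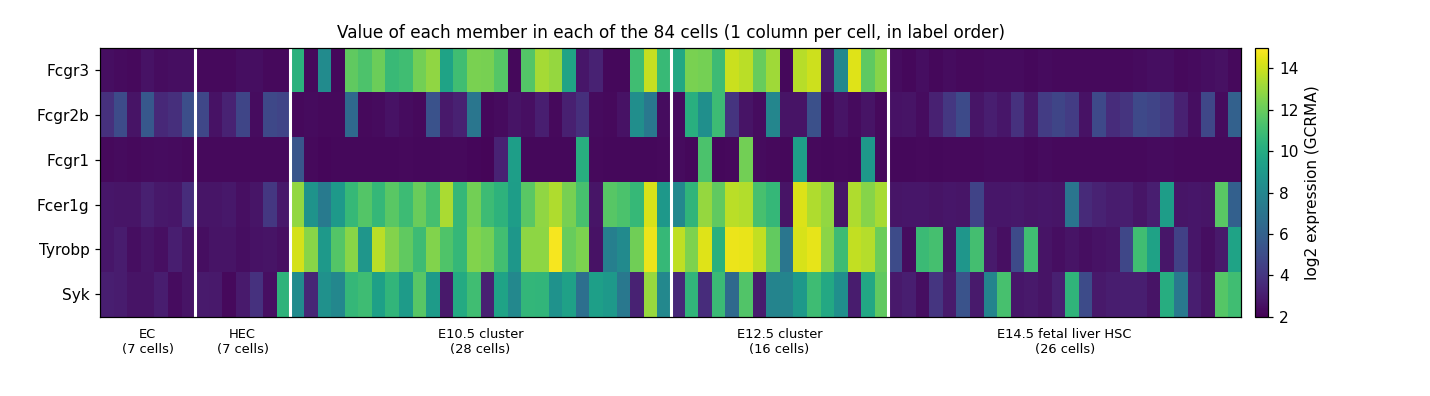
Log2 expression of the 6 genes (rows, lead probe sets) in each of the 84 cells (columns, by population and in the order of the labels' cell numbers), on a colour scale from 2 to 15. The Fcgr3, Fcer1g, Tyrobp and Syk rows are bright together in most cluster columns. In HSC 2 of the 8 columns above background for Tyrobp are so for Syk, near the 8 of 26 over all HSC.

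Across the populations the members were set beside the 10695 measured genes, with a difference of 1 log2 unit or more counted as higher or lower. Between EC and HEC, 1 of the 6 genes (Syk) was higher in HEC and none was lower, against 45.9% and 7.36% of measured genes and a median over them of 0.82. In E10.5 cluster cells 4 of the 6 were higher than in HEC and none lower, against 43.1% and 15.7% and a median of 0.71. From E10.5 to E12.5 cluster cells 4 of the 6 (Fcgr3, Tyrobp, Fcgr1 and Fcgr2b) were higher and none lower, while over all measured genes 5.47% were higher and 39.9% lower, with a median of -0.66. Relative to that median Fcgr3 was 2.57 higher and Tyrobp 2.09 higher. Without the 6 cells that go against their label 3 of the 6 were higher, and Fcgr1 was not. Without E12.5 cell 3 alone 2 were, since Fcgr1 came to 0.93 and Fcgr2b to 0.88. With the median over cells Fcgr3, Fcer1g and Tyrobp were the 3 higher genes, at 1.32, 1.57 and 1.58, with Fcgr2b at 0.21 and Fcgr1 at 0.035.

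From E12.5 cluster cells to HSC none of the 6 was higher and 5, all but Fcgr2b, were lower, against 7.91% and 36.9% of measured genes and a median of -0.54. Without the 6 cells that go against their label 4 were lower. From E10.5 cluster cells to HSC none was higher and 4 (Fcgr3, Fcer1g, Tyrobp and Syk) were lower, against 5.01% and 55.5% and a median of -1.29. The last comparisons share cells with the others, and the ranges over cells overlapped for every gene in every comparison.

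**Figure D5:**
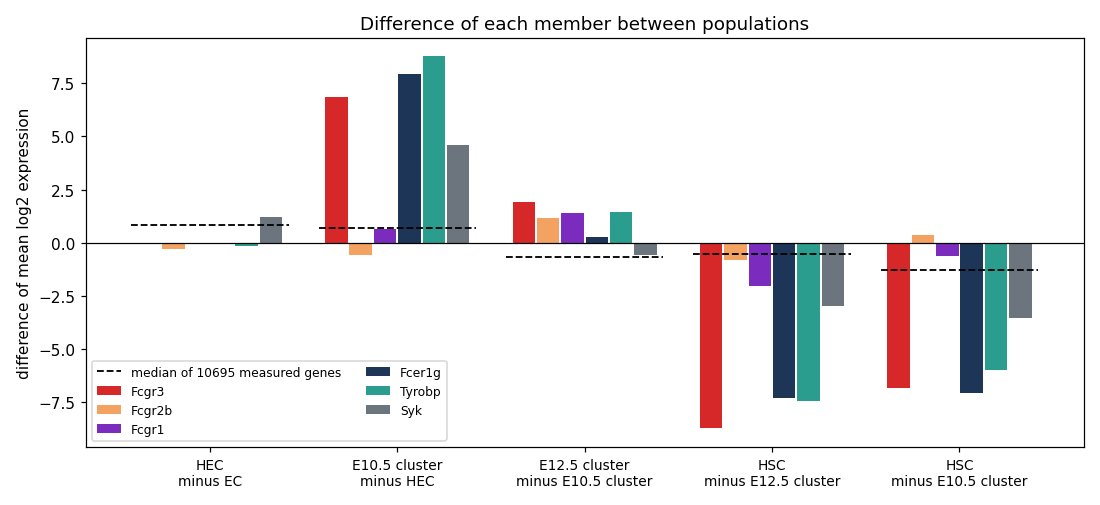
Difference of mean log2 expression between populations for the 6 genes (bars, lead probe sets), with the median over the 10695 measured genes as a dashed line. Fcgr3, Fcer1g, Tyrobp and Syk are 4.59 to 8.76 higher in E10.5 cluster cells than in HEC and 2.997 to 8.74 lower in HSC than in E12.5 cluster cells.

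Myeloid markers and the 6 genes did not all change alike at every step. Of 7 measured granulocyte-monocyte progenitor markers the median E10.5 cluster cell had 4 above background, the median E12.5 cluster cell 2 and the median HSC 1.5, and EC and HEC had 0. The mean log2 value over that list ran from 3.80 to 11.11 in E10.5 cluster cells, from 2.39 to 10.96 in E12.5 cluster cells, from 2.40 to 6.26 in HSC and from 2.37 to 2.55 in EC and HEC. From E10.5 to E12.5 the list was thus lower by its median count, and 39.9% of all measured genes were lower by 1 log2 unit or more. Fcgr3, Tyrobp, Fcgr1 and Fcgr2b were higher by 1 or more, while Fcer1g differed by 0.25 and Syk by -0.57. Of the granule enzymes on it, Mpo was above background in 27 of 28, 7 of 16 and 2 of 26 cells of clusters at E10.5, clusters at E12.5 and HSC. Prtn3 was above background in as many cluster cells, 27 of 28 and 7 of 16, but in 22 of 26 HSC, with medians of 11.81, 2.71 and 10.78. Elane passed the limit in 3 of 28 cluster cells at E10.5 and in no other cell. The median number of the 11 macrophage markers was 1 at E10.5, 0.5 at E12.5 and 1 in HSC. Of 4 measured mast cell and basophil markers the medians were 0, 1.5 and 0. Cpa3, 1 of the 4, was above background in 11 of 28 E10.5 and 11 of 16 E12.5 cluster cells. The list mean ran from 2.51 to 6.59 in E10.5 cluster cells, from 2.60 to 13.97 in E12.5 cluster cells and from 2.60 to 2.95 in HSC, where all 4 were below background. The part of such cells in the values above was not tested.

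The other genes of the pathway were read from 8 lists of 130 entries, of which 114 are on the array and 78 were measured. In E10.5 cluster cells 36 of the 78 (46.2%) were higher than in HEC and 8 lower, close to the 43.1% and 15.7% of all genes. In HSC 41 of 78 (52.6%) were lower than in E12.5 cluster cells and 7 higher, against 36.9% and 7.91% of all genes. Compared with E10.5 cluster cells 35 of 78 (44.9%) were lower in HSC and 4 (5.13%) higher, and the share lower is below the 55.5% of all genes. Between EC and HEC 20 (25.6%) were higher and 2 (2.56%) lower in HEC, both below the 45.9% and 7.36% of all genes. Between the cluster stages 11 (14.1%) were higher and 19 (24.4%) lower at E12.5, against 5.47% and 39.9%. The counts of the lists that follow are to be read against the same shares of all genes.

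Among receptors and adaptors few had a majority of cells. Of 10 measured receptors that pair with Fcer1g or Tyrobp, 2 (20%, below the 43.1% of all genes) were higher in E10.5 cluster cells than in HEC and none lower, and the one present in most cells was Csf2rb, a cytokine receptor chain, 6.12 higher and above background in 19 of 28 against 0 of 7 cells. In HSC 7 of the 10 (70%, against 36.9% of all genes) were lower than at E12.5 and 1 higher, and Csf2rb was 3.20 lower. That count includes the E12.5 cells with macrophage markers. Compared with E10.5 clusters 2 of the 10 (20%, below the 55.5% of all genes) were lower in HSC and 1 higher. Of 4 measured other Fc receptors, Fcgr4, a further activating IgG receptor, was above background in 3 of 28 and 3 of 16 cluster cells and in no other cell. Of 3 other ITAM adaptors, Cd79b, known as a chain of the B-cell receptor, was 4.36 higher in E10.5 cluster cells than in HEC (20 of 28 against 0 of 7 cells) and, unlike Fcgr3, was above background in 11 of 26 HSC. Clec7a and Clec1b, the 2 measured receptors with a single ITAM-like motif, differed in where they were found. Clec7a passed the limit in 6 of 28 and 2 of 16 cluster cells and in no other cell. Clec1b passed it in 2 of 7 EC, 2 of 7 HEC, 9 of 28 and 0 of 16 cluster cells and 2 of 26 HSC, and its mean was 5.20 in HEC and 4.84 in E10.5 clusters.

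The list of Src and Tec family kinases also holds Csk, which restrains Src kinases, and Zap70, which belongs to neither family. Of its 9 measured genes 2 (22.2%) were higher and 4 (44.4%) lower in E10.5 cluster cells than in HEC, against 43.1% and 15.7% of all genes. Csk was 3.28 higher, Yes1 3.06 lower and Fyn 1.03 lower. Of 26 measured signal adaptors and effectors 15 (57.7%) were higher and 2 lower there, led by Was, an actin regulator (6.12, 28 of 28 against 1 of 7 cells), the phosphoinositide kinase subunit Pik3cd (5.55), Prkcd (5.02) and the phospholipase Plcg2 (4.56). At E12.5 6 of the 26 (23.1%) were higher and 7 (26.9%) lower than at E10.5, against 5.47% and 39.9% of all genes. The adaptors Fyb, Gab2 and Lcp2 were 2.85, 2.10 and 1.82 higher at E12.5, while the difference of Pik3ca was -1.89. In HSC 13 of the 26 (50%, against 36.9% of all genes) were lower than at E12.5 and 2 higher, with Fyb 5.19 lower, Grb2 3.38 lower and Pik3r1 3.42 higher. Compared with E10.5 clusters 14 of the 26 (53.8%, near the 55.5% of all genes) were lower in HSC and 1 higher.

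The lists of inhibitory phosphatases and ligases and of inhibitory receptors differed in their counts. The list of phosphatases and ligases also holds the adaptors Dok1, Dok2, Dok3 and Pag1, and not all of its genes only restrain the pathway. Of 15 measured inhibitory phosphatases and ligases 11 (73.3%, against 43.1% of all genes) were higher and 1 lower in E10.5 cluster cells than in HEC, led by the phosphatase Ptpn6 (6.32), the adaptor Pag1 (5.35), Inpp5d, the phosphatase that Fcgr2b recruits (5.01, 27 of 28 against 4 of 7 cells), and Ptpn18 (3.95). At E12.5 1 was higher and 7 (46.7%, against 39.9%) lower than at E10.5, with Cbl 2.88, Dok2 2.66 and Ubash3a 2.63 lower. Inpp5d was above background in all 16 cluster cells at E12.5 and in 21 of the 26 HSC. Of 10 measured genes on the list of inhibitory receptors 4 (40%, slightly below the 43.1% of all genes) were higher and 1 lower in E10.5 cluster cells, with Siglecf 4.26 higher, Laptm5, a lysosomal protein rather than a receptor of this class, 4.63 higher and Pecam1, which encodes the CD31 of the gates, 5.20 lower. Siglecf was above background in 15 of 28 and 9 of 16 cluster cells and in no HSC, where it was 4.42 lower than at E12.5. Pirb, Siglecg, Cd300lf and Lair1 passed the limit in 1, 2, 5 and 7 of the 28 cluster cells at E10.5.

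The genes whose values were most alike across cells were ranked by Pearson's r over the 84 cells among 8840 genes above background in at least 10 cells. For Fcgr3 they were Fcer1g (0.82), Tyrobp (0.78), Pstpip2 (0.77), Lpcat2 (0.76) and Plek (0.75). For Fcer1g they were Plek (0.83), Fcgr3 (0.82), Tyrobp (0.79), Pmaip1 (0.77) and Cd52 (0.76), and for Tyrobp they were Fcer1g, Fcgr3, Plek (0.76), Cd52 (0.76) and Arhgap9 (0.73). Syk was most like Spi1 (0.66), the gene of PU.1, which was above background in 25 of 28, 13 of 16 and 15 of 26 cells of clusters at E10.5, clusters at E12.5 and HSC. Ell2 (0.62), Fcer1g (0.62), Coro2a (0.61) and Zfp330 (0.60) followed it. For Fcgr2b no gene passed 0.45, that of Fuca1. Ranked by Spearman's rho instead, 4 of the leading 5 genes stayed among the first 5 for Fcgr3, 2 for Fcer1g, 2 for Tyrobp, 1 for Syk and 0 for Fcgr2b. Pmaip1 was then at rank 117 for Fcer1g, Ell2 at 27 for Syk and Fuca1 at 1713 for Fcgr2b, while Spi1 stayed first for Syk. The cells share population and array depth: r with the number of probe sets above background was 0.54 for Fcgr3, 0.62 for Fcer1g, 0.52 for Tyrobp and 0.51 for Syk.

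Within the 28 E10.5 cluster cells the order was another one. Among 8352 genes Fcgr3 was most like Oaf (0.89) and Lamp2 (0.87), followed by Emilin2 (0.78), Perp (0.73) and Pigo (0.73). Fcer1g and Tyrobp correlated with each other at 0.72 there, and Fcgr3 at 0.51 with Fcer1g and 0.56 with Tyrobp. The leading genes of Fcer1g were Atp6v1e1 (0.88), Rfc5 (0.87), Pgrmc1 (0.87), Lig1 (0.85) and Mapre2 (0.85), and those of Tyrobp were Mrps30 (0.81), Smdt1 (0.78), Ecd (0.78), Ero1a (0.74) and Atp6v1e1 (0.74). Fcer1g and Tyrobp were both low in cell 23 and in no other of these 28 cells: without it their r was 0.45, and with it Spearman's rho was 0.47. By rho 2 of the 5 leading genes stayed among the first 5 for Fcgr3, 1 for Fcer1g, 0 for Tyrobp and 1 for Syk. Syk, low in 4 cells, was most like Fuca2 (0.78) and Igf2bp1 (0.72), and its r with Fcer1g was 0.15 and with Tyrobp 0.004.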

How the data were processed

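Each of the 85 arrays holds 1 cell. The deposited values are on a log2 scale. Per the submitters' processing notes the tools were GCRMA and affy (in a version not given in the sources used here). This method removes background by probe sequence and joins the probes of a set, so values of different probe sets are not compared. Control probe sets held shared values (12.64 in 82 arrays, 9.50 in 65, both in 62), and no array was normalized again.

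Probe sets were named from the platform's annotation: 34958 had 1 gene symbol and were used, 932 had several and 9211 are unnamed here. Where a gene has several, its lead set is the one highest on average when the 5 populations weigh equally, and 10695 of 18194 genes were measured. A value over 5 was above background, as 17.6% of values were. HSC cells 20 and 21 were averaged (r over 0.95). Differences are between means over cells, with exact intervals for shares, and no test was made. Promoter windows came from RefSeq (GRCm38.p6). The 6 genes, the lists, the marker lists and the alternatives were chosen with earlier results of these data known.

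Named pathway genes are up to 4 per list and comparison with the largest difference of at least 1 among those that pass the limit in 50% or more of the higher population's cells, and genes of the lists named besides were chosen after their values were seen. Marker lists whose values are not in the text above (megakaryocyte, erythroid, lymphoid and hepatocyte) had at most 5 of 6, 5 of 5, 3 of 3 and 1 of 2 measured genes above background in any cell. Depth here is the number of probe sets above background. Calculations used Python 3.11.15 with numpy 2.4.6, pandas 2.3.3 and scipy 1.17.1, and the steps were tested on simulated data.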

Additional observations from a re-analysis of the deposited data

Results flagged for a closer look

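In the 12 groups of 4 to 10 cells examined (EC and HEC, each gene on its lead probe set), 2 held a cell far from the rest. Fcer1g in HEC cell 6 was 4.10, under the background limit of 5, with the other HEC at 2.52 to 2.83. Syk in HEC cell 7 was 10.45, with the other HEC at 2.31 to 3.88. Chance flags about 1 in 20 such groups.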

How the results depend on the processing

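Counts of members past 1 log2 unit changed as follows. For HEC against EC the 1 gene higher became 0 with the mean or the highest of all probe sets, an equal median, quantile normalization, the median over cells, arrays with both controls shared, or values under 5 set to 5 (0 to 1 with each cell left out, 0 without HEC cell 7), and the 0 genes lower became 4 with an equal median and 3 with quantile normalization. For E10.5 clusters against HEC the 0 lower became 1 with quantile normalization and the median over cells. For E12.5 against E10.5 clusters the 4 higher became 2 with the mean of all probe sets (2 to 4 with each cell left out, 2 without E12.5 cell 3) and 3 with the median over cells (Fcer1g in, Fcgr1 and Fcgr2b out), without the 6 cells, or with values under 5 set to 5. The 0 higher in HSC became 1 against E12.5 with the median over cells, and 1 against E10.5 with that and with quantile normalization. Of the differences past 1, 3 turned: Syk in HEC against EC to -0.030 on arrays with both controls shared, Fcgr1 between cluster stages to -0.13 without the 6 cells that go against their label, and Fcgr1 in HSC against E12.5 to 0.014 with the median over cells. The cause was not tested. Of the other differences 337 stayed within 1 SD over cells and 20 moved further. With an equal median the all-gene medians were -0.15, 1.22, -0.70, -0.49 and -1.28 in the order of comparisons above, and with quantile normalization 0.00, 0.19, -0.03, 0.01 and -0.04. The shares of all genes higher and lower were then 26.6% and 30.6%, 56.0% and 11.5%, 5.21% and 40.9%, 8.53% and 35.9%, 5.07% and 55.4% (equal median), and 25.4% and 21.6%, 27.8% and 22.7%, 15.1% and 18.9%, 17.3% and 19.2%, 20.3% and 25.8% (quantile). Pathway genes lower in HEC than EC became 36 and 10, and with quantile normalization 23 were higher and 6 lower at E12.5 and 12 higher and 14 lower in HSC than at E10.5. No paired analysis was possible because a population is 1 sample here and no test was run.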
